A study of Mus musculus with 30 samples.

Results

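Expression of 9 genes of the bone morphogenetic protein (BMP) system was examined in the colon of 30 mice. The genes were taken by name and cover 3 secreted antagonists (Grem1, Nog and Chrdl1), 5 ligands (Bmp2, Bmp3, Bmp4, Bmp5 and Bmp7) and the target gene Id1, and all 9 were found among the 46078 genes counted. RNA-seq had been performed on colon tissue of C57BL/6J mice, with 1 library per mouse and 6 mice in each of 5 groups. CD F and CD M were females and males on a control diet with 10% of its energy from fat. HFD F and HFD M were females and males on a high-fat diet with 60% of its energy from fat. HFD+E2 M were males on the high-fat diet that received 17β-estradiol (E2) at 0.5 mg per kg body weight, while the mice of the other 4 groups received vehicle. The diets were given for 13 weeks to mice obtained at 5 to 6 weeks of age, and E2 or vehicle was given in 9 intraperitoneal injections over the last 3 weeks. The females were not ovariectomized and had no E2 group among these libraries. The RNA came from colon tissue, named distal colon in the study, and markers of epithelium, connective tissue and muscle were all present in it.

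BMPs are secreted ligands that bind paired receptors on the cell surface and act through phosphorylated Smad proteins in the nucleus. In the intestine BMP signalling is high towards the luminal surface, where it restrains division, and low at the crypt base, where antagonists secreted by fibroblasts and muscle cells under the crypts keep the stem cell zone open. Gremlin 1 is the best known of these antagonists in the colon, and its misplaced expression in the epithelium causes a hereditary polyposis in humans. The Id genes, Id1 among them, are induced directly by BMP-activated Smads.

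The genes lie on several chromosomes of the mouse genome (GRCm38). Grem1 (chr2:113746164-113758646, minus strand), Bmp2 (chr2:133552159-133562885, plus strand), Id1 (chr2:152736251-152737410, plus strand) and Bmp7 (chr2:172868012-172940321, minus strand) share chromosome 2, and Chrdl1 (chrX:143285674-143394262, minus strand) is X-linked. The promoters of 3 of the 9 genes were at hand (RefSeq, GRCm38.p6). All 3 are shown, whatever the expression of their genes, and a link of their motifs to expression was not tested. Each sequence gives the 250 bases before the transcription start, 5′ to 3′ on the strand of the gene, and capitals mark a motif found.
Grem1 (chr2:113758649-113758898, minus strand): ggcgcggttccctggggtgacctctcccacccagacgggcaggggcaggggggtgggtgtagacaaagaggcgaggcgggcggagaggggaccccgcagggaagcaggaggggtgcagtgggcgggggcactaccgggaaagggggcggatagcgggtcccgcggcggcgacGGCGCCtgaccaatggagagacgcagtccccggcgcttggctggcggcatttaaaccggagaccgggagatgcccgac
Bmp4 (chr14:46390670-46390919, minus strand): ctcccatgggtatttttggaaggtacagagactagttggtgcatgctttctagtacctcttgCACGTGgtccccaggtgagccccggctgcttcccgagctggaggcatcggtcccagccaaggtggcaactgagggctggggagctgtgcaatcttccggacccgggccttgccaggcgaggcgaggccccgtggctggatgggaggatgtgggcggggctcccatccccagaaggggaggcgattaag
Bmp5 (chr9:75775115-75775364, plus strand): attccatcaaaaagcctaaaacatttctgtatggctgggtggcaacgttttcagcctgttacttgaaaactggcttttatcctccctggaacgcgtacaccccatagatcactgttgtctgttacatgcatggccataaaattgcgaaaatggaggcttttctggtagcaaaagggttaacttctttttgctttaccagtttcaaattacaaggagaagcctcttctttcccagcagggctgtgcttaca

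The motifs searched on both strands were GGCGCC, a palindrome bound by BMP-activated Smads, the estrogen response element (GGTCA and TGACC with 3 bases between them), CACGTG, the E-box read by the circadian clock factors, and the CArG box bound by serum response factor in muscle genes. The Grem1 promoter held GGCGCC from 78 to 73 bases before the start. This motif was present in 9.59% of 32851 promoters of the same length. In the Bmp4 promoter CACGTG was found 188 to 183 bases before the start, a motif in 6.02% of all promoters. None of these letters were found in the window of Bmp5, and the estrogen response element (0.0639% of promoters) and the CArG box (1.47%) were in none of the 3. The GC content was 72.0% for Grem1, 63.2% for Bmp4 and 42.8% for Bmp5, against a median of 52.4% over all promoters.

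The libraries held between 8667177 and 17243712 counts on genes, with 26.1% to 38.0% on mitochondrial genes. Colonocyte markers were abundant in every library (summed 3582 to 5785 TPM, a unit scaled to gene length and library, over 10 genes), and all 10 smooth muscle and all 9 fibroblast markers were detected in each group. Genes of stratified squamous epithelium, which lines the anal canal and not the colon, were high in 4 HFD F and 2 HFD M libraries (summed up to 1540 TPM over 13 genes, against at most 11.9 TPM in any CD library). Results called in the diet comparisons and the interaction are given with and without these 6 libraries. So is Grem1 in each comparison that holds any of them.

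Ordered by TPM, Id1 was the most abundant of the 9 genes (mean 46.9 TPM over 30 libraries). Grem1 followed with 25.6 TPM and was below Id1 in 26 of 30 libraries. Bmp2 had 19.2 TPM and was below Grem1 in 21, an order that turned in CD females (18.4 TPM for Bmp2 and 17.3 TPM for Grem1), and Bmp3 had 15.2 TPM and was below Bmp2 in 25. Chrdl1 (12.3 TPM), Bmp5 (10.3 TPM) and Bmp4 (8.29 TPM) came next, each below the gene before it in 24 to 26 of 30 libraries. Bmp7 with 1.47 TPM and Nog with 0.247 TPM were the last, each below the gene before it in 30 of 30. The means of Grem1 and Bmp2, of Bmp3 and Chrdl1, of Chrdl1 and Bmp5 and of Bmp5 and Bmp4 differed by less than the larger SD of the pair. The receptors and Smads were at hand in the same tissue, with 33.8 TPM for the type I receptor Bmpr1a, 20.7 TPM for the type II receptor Bmpr2 and 61.4 TPM for the common mediator Smad4.

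Grem1 was the gene that differed most clearly between groups. On the scale of counts scaled to library size (CPM), CD females ranged from 50.3 to 65.6 with a median of 53.9, and CD males from 89.4 to 124 with a median of 96.4. On HFD the sexes were alike in range, with 57.3 to 100.4 CPM in females (median 73.7) and 57.5 to 126 CPM in males (median 79.2). The HFD+E2 males had 66.4 to 96.0 CPM (median 74.6). The CD groups were completely apart, while the 3 HFD groups overlapped with one another and had medians between those of the CD groups.

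Noggin, a second antagonist of BMP ligands, was close to the detection limit. Nog was counted 0 to 15 times per library, at most 6 times in the CD groups and 5 times in the HFD male groups, and up to 15 times in HFD females. It did not pass the filter on low counts in any comparison, and 8 of the 9 genes were tested. Chordin-like 1, which binds and holds back BMP4 among others, was far more abundant than Nog. The lowest, median and highest Chrdl1 values were 28.8, 34.8 and 42.2 CPM in CD females, 35.7, 41.6 and 51.9 CPM in CD males, 29.6, 37.4 and 40.6 CPM in HFD females, 31.2, 45.1 and 55.3 CPM in HFD males and 31.1, 36.2 and 40.3 CPM in HFD+E2 males. All 5 groups overlapped.

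Among the ligands, Bmp4, made by the mesenchyme under the epithelium, ranged from 8.49 to 13.3 CPM in CD females (median 11.5) and from 11.5 to 19.9 CPM in CD males (median 16.4). The medians were 11.7 CPM in HFD females, 12.8 CPM in HFD males and 13.8 CPM in HFD+E2 males, all with ranges that overlapped the CD groups. Bmp7 was low, with 22 to 72 counts per library. In CD females it was confined to 2.06 to 2.76 CPM (median 2.48), whereas CD males spread from 2.24 to 5.63 CPM (median 4.91), with 4 males at 4.50 CPM or more and the other two at 2.24 and 2.82 CPM. All 6 HFD females were above all 6 CD females, at 3.42 to 4.43 CPM (median 3.89). The HFD males had 1.65 to 4.44 CPM and the HFD+E2 males 2.48 to 4.06 CPM.

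The other ligands varied less between groups. Bmp2, expressed by differentiated epithelial cells, had medians of 53.9, 49.6, 47.5, 49.5 and 59.5 CPM in CD F, CD M, HFD F, HFD M and HFD+E2 M. Bmp3, which opposes the other BMPs at the activin receptors, had medians of 84.8, 74.6, 66.6, 72.9 and 71.9 CPM in the same order. Bmp5 had medians of 28.4, 33.7, 28.4, 30.4 and 25.8 CPM, and its lowest value, 17.7 CPM, was in an HFD+E2 male. For each of these ligands every pair of groups overlapped. The target gene Id1 varied most over the 30 libraries among the 8 genes tested (3.68-fold from the lowest to the highest CPM), from 15.5 to 57.0 CPM in CD females alone. Its group medians ran from 33.8 CPM in HFD females to 43.1 CPM in HFD males.

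**Figure D1:**
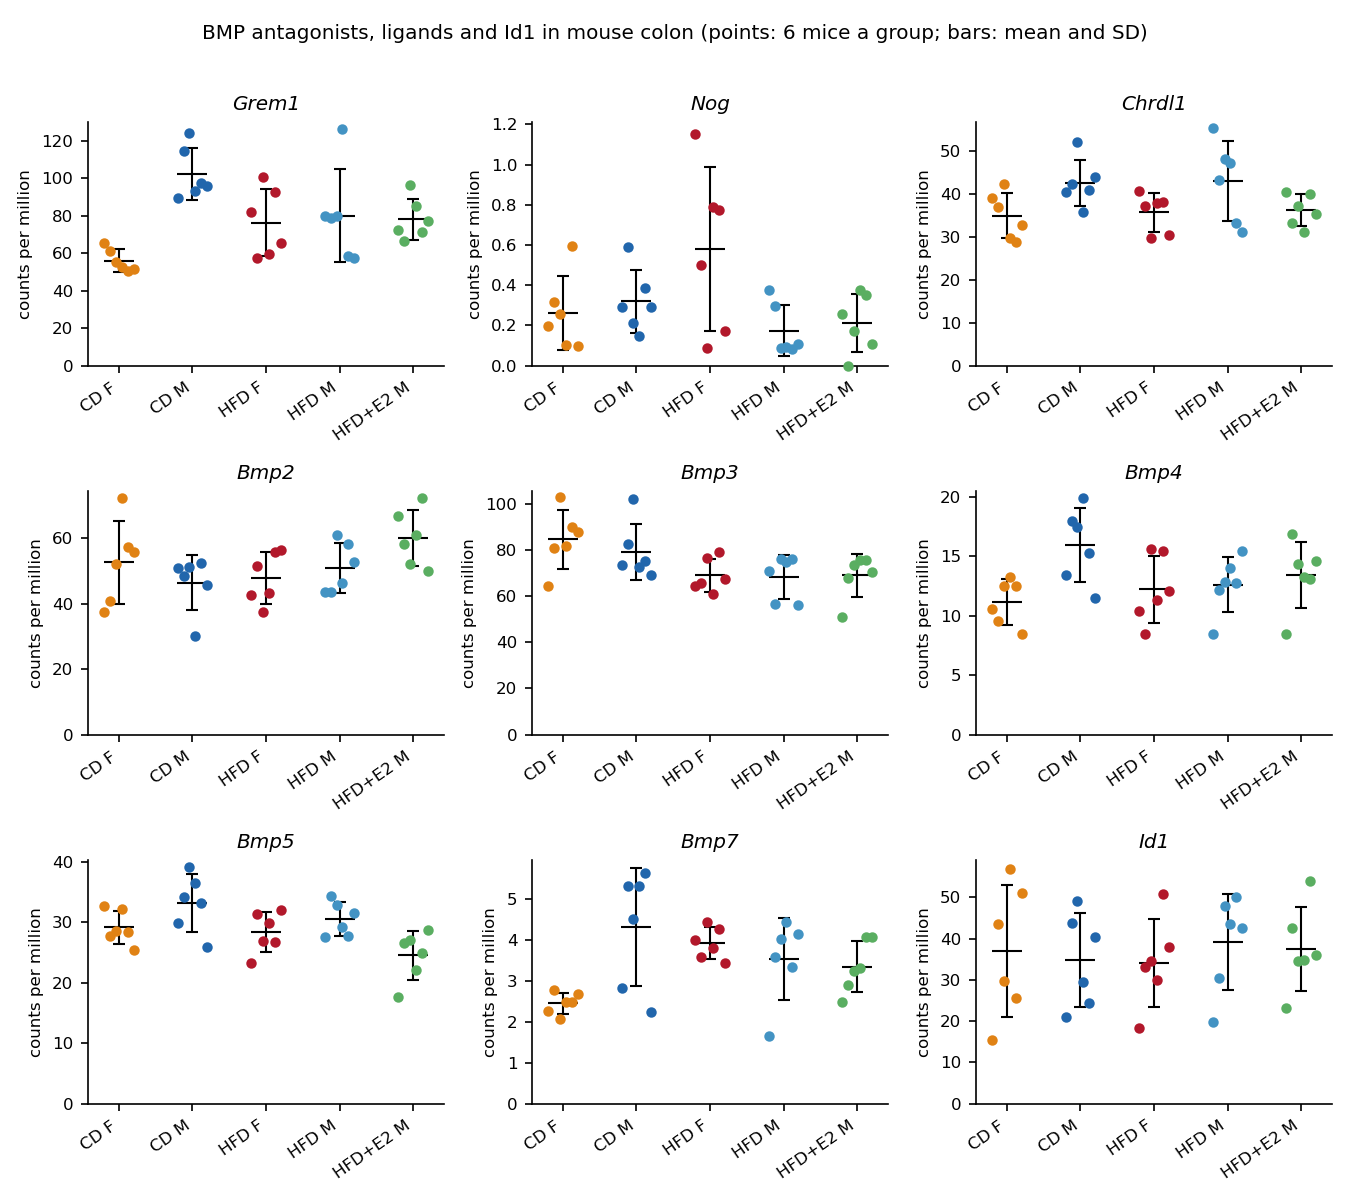
CPM of the 9 genes in each of the 30 libraries (vertical axis, from 0) by group (horizontal axis), with points for mice and bars for the mean and SD of 6 mice. Grem1 separates CD F (50.3 to 65.6) from CD M (89.4 to 124), and Bmp7 separates CD F (2.06 to 2.76) from HFD F (3.42 to 4.43), while Bmp2, Bmp3 and Id1 overlap in all groups.

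To study sex differences on the control diet, CD F was compared with CD M. A gene was called by the threshold of the study, which asks for an unadjusted p under 0.05 (here of edgeR's quasi-likelihood test) and for a change of more than 0.4 on the log2 scale. Of the 8 genes tested 3 were lower in females and none were higher, against 9.15% of all 14922 genes called in either direction and 6.21% called lower. The genes and lists were chosen with earlier results of these data known. A share of calls beside that of all genes is therefore no test of them, here or further on. Grem1 was 1.82-fold lower in females, a log2 fold change of -0.87 (SE 0.10, n = 6 and 6, edgeR adjusted p = 0.000154), and all 6 females lay below all 6 males. In TPM the means were 17.3 ± 3.56 in females and 33.8 ± 3.86 in males (SD, n = 6). Bmp4 was lower by a log2 fold change of -0.52 (SE 0.15, edgeR adjusted p = 0.0846), with 3 of 6 females below all males. Bmp7 was lower by -0.81 (SE 0.23, edgeR adjusted p = 0.0666), with 1 of 6 females below all males. An exact permutation test on log2 CPM (two-sided) gave p = 0.00216 for Grem1, the smallest that 6 against 6 allows, p = 0.0152 for Bmp4 and p = 0.0238 for Bmp7. In a tissue of mixed cells, fewer cells of a type and less RNA per cell cannot be told apart.

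Only Grem1 passed at an adjusted p under 0.05 among the 8, where 2.92% of all genes passed in either direction and 2.14% were lower. With DESeq2, Bmp4 (adjusted p = 0.0376) and Bmp7 (adjusted p = 0.0308) passed too. The shares of 2.92% and 2.14% are those of edgeR, and the shares with DESeq2 are not given here. Chrdl1 had a log2 fold change of -0.28 (edgeR adjusted p = 0.22), short of the fold minimum. The values for Bmp2 (0.18), Bmp3 (0.10), Bmp5 (-0.19) and Id1 (0.09) did not reach the threshold. The median log2 fold change of the 8 genes was -0.24, beside 0.01 over all genes.

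On HFD none of the 8 genes were called between females and males by edgeR, and none had an unadjusted p under 0.05, where 3.09% of all genes were called. The log2 fold change of Grem1 was -0.05 (SE 0.20, edgeR adjusted p = 0.974). That of Bmp4 was -0.03 (SE 0.17) and that of Bmp7 was 0.17 (SE 0.21). The most negative value was that of Chrdl1, -0.26 (edgeR adjusted p = 0.872). Without the 6 libraries high in squamous genes Grem1 was -0.16 and not called. Nog was called higher in HFD females only when the filter on low counts was lifted (log2 fold change 1.67, edgeR adjusted p = 0.72) or with DESeq2 (1.73, adjusted p = 0.752). The HFD females had 15, 6, 1, 10, 8 and 2 counts of Nog and the HFD males 5, 3, 1, 1, 1 and 1, so these values rest on few reads. The counts of 15, 10 and 8 came from HFD F libraries high in squamous genes, and Nog was not tested without them.

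To explore the response to HFD, HFD F was compared with CD F and HFD M with CD M. In females 2 of the 8 genes were called, both higher on HFD, against 3.67% of all genes in either direction and 2.95% higher. Bmp7 had a log2 fold change of 0.69 (SE 0.16, edgeR adjusted p = 0.383), and the groups did not overlap (exact permutation test on log2 CPM, two-sided, p = 0.00216). Grem1 had a log2 fold change of 0.47 (SE 0.14, edgeR adjusted p = 0.5), and 4 of 6 HFD females were above all CD females (exact permutation test on log2 CPM, two-sided, p = 0.0216). Neither passed after adjustment with edgeR, where 0.0199% of all genes did. Bmp7 passed with DESeq2 (adjusted p = 0.0421), for which the share of all genes that passed is not given here. The Grem1 call was lost when libraries were left out. Without the 4 of 6 HFD F libraries high in squamous genes, an omission added after seeing the data, the log2 fold change was 0.14. Without HFD F replicate 3 or replicate 5 alone it was 0.37 or 0.40, short of the fold minimum. Few HFD F libraries remained in the first of these fits, and the cause of the lower value was not tested. The 4 libraries had 81.9, 100.4, 59.7 and 92.8 CPM of Grem1 and the other two 57.3 and 65.6 CPM. Bmp7 without the 4 libraries was 0.52 and still called, at an unadjusted p just under 0.05. Bmp3 was -0.28 (edgeR adjusted p = 0.694), short of the fold minimum.

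In males none of the 8 genes were called by edgeR or DESeq2, against 2.9% of all genes. Grem1 (log2 fold change -0.35, SE 0.16, edgeR adjusted p = 0.823) and Bmp4 (-0.34, SE 0.16, edgeR adjusted p = 0.823) had an unadjusted p under 0.05 but not the fold. For Grem1, 5 of the 6 HFD males were below all CD males, and HFD M replicate 4, with 126 CPM, was above them all. Without that library the log2 fold change was -0.54 and called. Without the 2 HFD M libraries high in squamous genes, of which replicate 4 is a member, it was -0.58 and called (edgeR adjusted p = 0.41). Bmp4 was called without CD M replicate 6 (-0.42) or HFD M replicate 6 (-0.41). Bmp7 was -0.29 (SE 0.26).

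The difference between the diet effects of the sexes was tested as an interaction over 24 libraries. Of the 8 genes 3 were called, all with a more positive diet effect in females, where 5.18% of all genes were called and 3.71% in this direction. The difference in log2 fold change was 0.81 for Grem1 (SE 0.23, edgeR adjusted p = 0.447), 0.98 for Bmp7 (SE 0.31, edgeR adjusted p = 0.584) and 0.49 for Bmp4 (SE 0.23, edgeR adjusted p = 0.727). None of the 8 genes passed after adjustment over the 15800 genes tested. Bmp4 was called in 9 of 24 fits that left out 1 library each, while Grem1 and Bmp7 were called in all 24. Without the 6 libraries high in squamous genes the difference was 0.71 for Grem1 and 0.92 for Bmp7, both called, and 0.26 for Bmp4. That fit lacked 4 of the 6 HFD F and 2 of the 6 HFD M libraries, so it rests on few HFD females. The comparisons share libraries: CD F and CD M enter the sex comparison, the diet comparisons and the interaction, so these values are not independent of each other.

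The effect of E2 was tested in HFD males. None of the 8 genes were called by edgeR or DESeq2, against 5.87% of all genes. Bmp5 was the only gene of the 8 with an unadjusted p under 0.05 (log2 fold change -0.31, SE 0.13, edgeR adjusted p = 0.461), and 5 of 6 HFD+E2 males were below all HFD males. On the scale of log2(TPM + 0.1) Bmp5 was lower by -0.47 and passed the threshold (exact permutation test, two-sided, p = 0.00866, n = 6 and 6). TPM were lower relative to CPM in HFD+E2 males than in HFD males for most of the genes (median log2 of TPM per CPM -1.58 and -1.42 for Bmp5, -1.49 and -1.33 for Bmp2), so the larger value comes with a scaling that moved several genes alike. Grem1 had a log2 fold change of -0.03 (SE 0.17), Bmp7 of -0.07 (SE 0.23) and Id1 of -0.05 (SE 0.22). Without the 2 HFD M libraries high in squamous genes Grem1 was 0.19 and not called. Bmp2 was 0.24 (SE 0.12, edgeR adjusted p = 0.496).

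**Figure D2:**
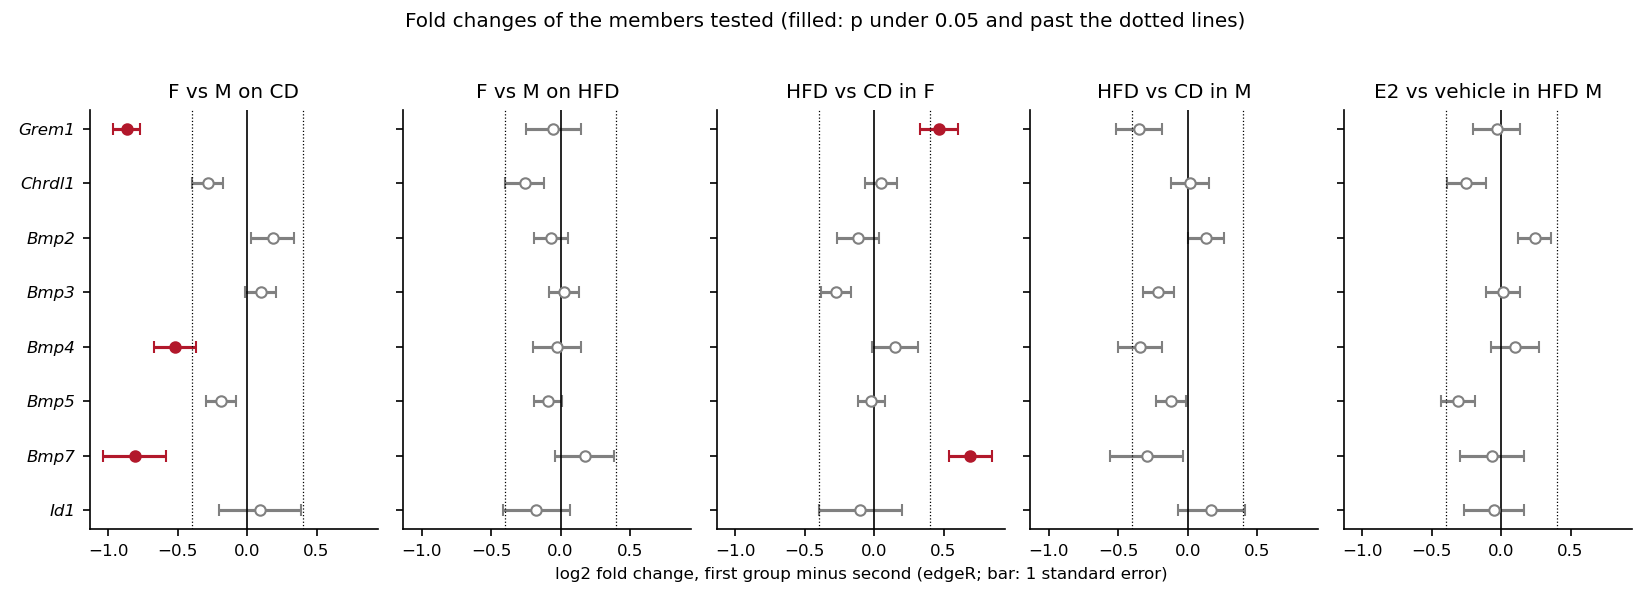
Log2 fold change with 1 standard error (horizontal axis) of the 8 genes tested (rows) in the 5 comparisons (panels), filled where p was under 0.05 and the value past 0.4 either way. On CD, Grem1 (-0.87), Bmp4 (-0.52) and Bmp7 (-0.81) are filled on the left, in the HFD against CD panel of females Grem1 (0.47) and Bmp7 (0.69) on the right, and the other 3 panels have no filled point.

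Several marker lists moved with these genes between CD females and males, where 9.15% of all genes were called and 6.21% were lower. On CD the summed level of 10 smooth muscle genes was 2988 to 4495 TPM in females and 4634 to 7749 TPM in males, and 10 of 10 were called lower in females. The 9 fibroblast genes had 330 to 672 TPM in CD females and 605 to 993 TPM in CD males, with 4 of 8 tested called lower. Of 6 endothelial genes 3 were called lower and none higher. B cell genes moved the other way, with 4 of 8 called higher in females and a median log2 fold change of 1.34. For HFD against CD in females, 3 of 8 fibroblast genes were called higher and none lower, against 2.95% of all genes called higher. None of 10 smooth muscle genes were called there, though all 10 were positive, and all 8 B cell genes were negative and uncalled. In the interaction 3 of 10 smooth muscle and 3 of 8 fibroblast genes were called higher, against 3.71% of all genes, and none lower. All 8 B cell genes were negative and uncalled there too. None of the smooth muscle or fibroblast markers were at 0 in all libraries of a group. Within groups, over 30 libraries, the log2 CPM of Bmp4 correlated with the smooth muscle score, the mean log2 CPM of the 10 genes, with r = 0.66 (Spearman's rho = 0.69). The value was 0.65 for Bmp3, 0.57 for Bmp7 and 0.50 for Grem1. These values share libraries and depth.

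With the smooth muscle score as a covariate, the difference between CD females and males was -0.78 for Grem1 (edgeR adjusted p = 0.0101), -0.03 for Bmp4 and -0.16 for Bmp7, so Grem1 remained called and Bmp4 and Bmp7 did not. Bmp3 became called in the same fit (0.43, edgeR adjusted p = 0.0759). The smooth muscle scores of CD females (8.40 to 9.11) and CD males (8.90 to 9.67) overlapped only in part, so score and sex were partly confounded there. With this score the SE rose from 0.10 to 0.14 for Grem1, from 0.15 to 0.18 for Bmp4 and from 0.23 to 0.32 for Bmp7. With the fibroblast score, chosen after the data were seen, Grem1 was -0.56 (edgeR adjusted p = 0.987) and was the 1 gene still called, with Bmp4 at -0.45 and Bmp7 at -0.14. The fibroblast scores of CD females (5.28 to 5.72) and CD males (5.73 to 6.23) did not overlap, so in that fit score and sex were largely confounded. For HFD against CD in females, Bmp7 stayed called with the smooth muscle score (0.64), the fibroblast score (0.53) and the squamous score (0.53), and Grem1 did not, with 0.34, 0.23 and 0.16. In the interaction Grem1 stayed called with each score (0.55, 0.63 and 0.58), Bmp7 only with the squamous score (0.88), and Bmp4 with none. The part of cell composition in the results was not tested beyond these fits.

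**Figure D3:**
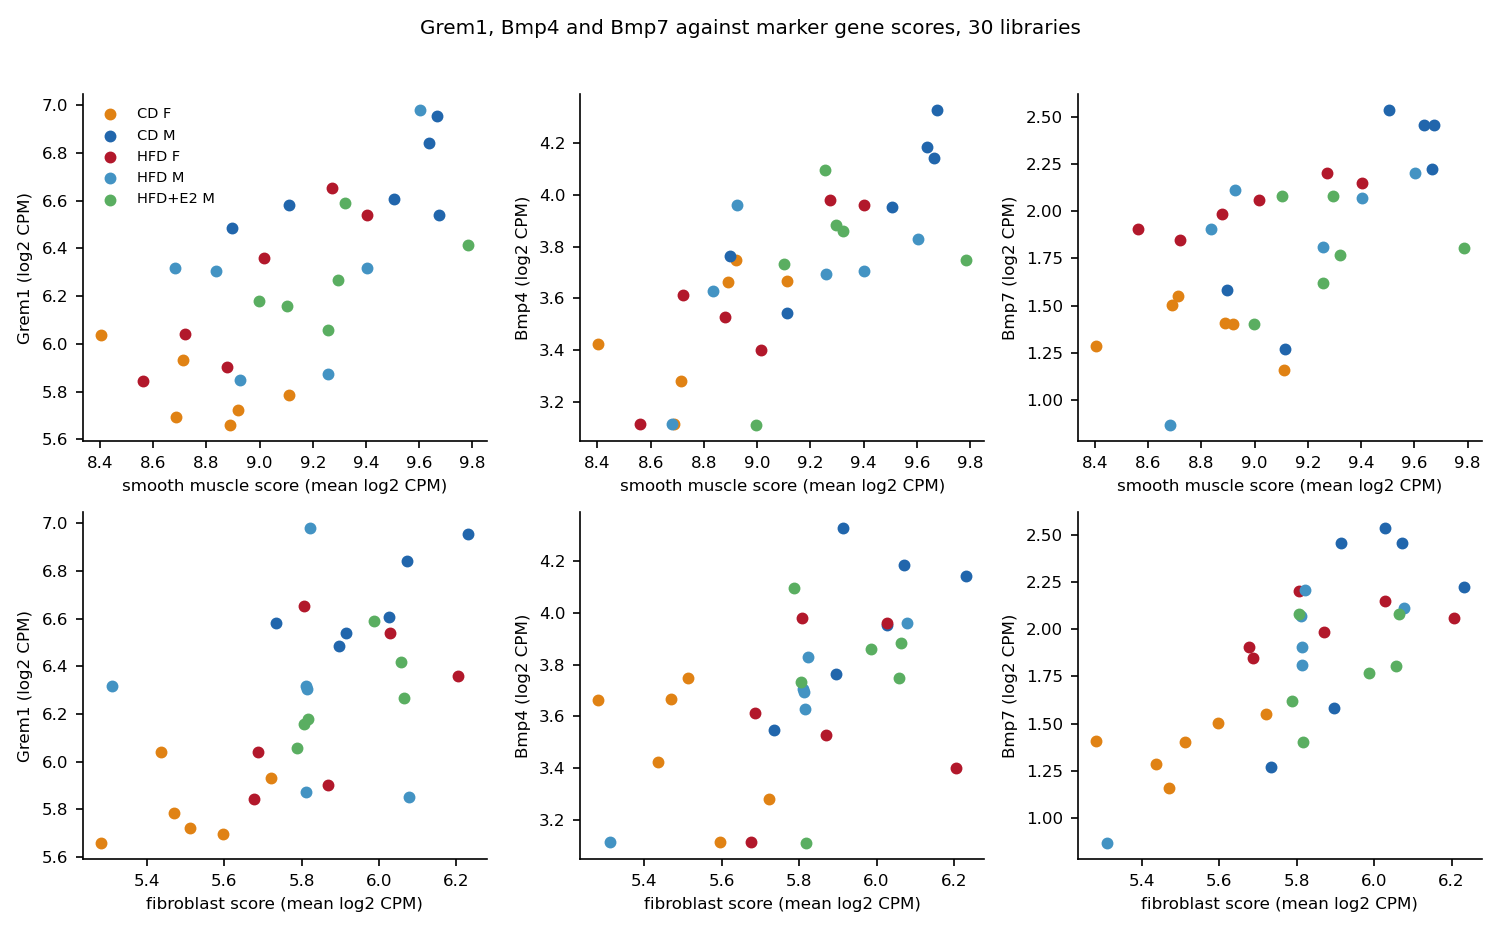
Log2 CPM of Grem1, Bmp4 and Bmp7 (vertical axes) against the smooth muscle score (top row) and the fibroblast score (bottom row), each the mean log2 CPM of its marker genes, with 1 point per library and colours for the 5 groups. CD F libraries lie on the left of the fibroblast panels, with scores of 5.28 to 5.72 against 5.73 to 6.23 in CD M.

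**Figure D4:**
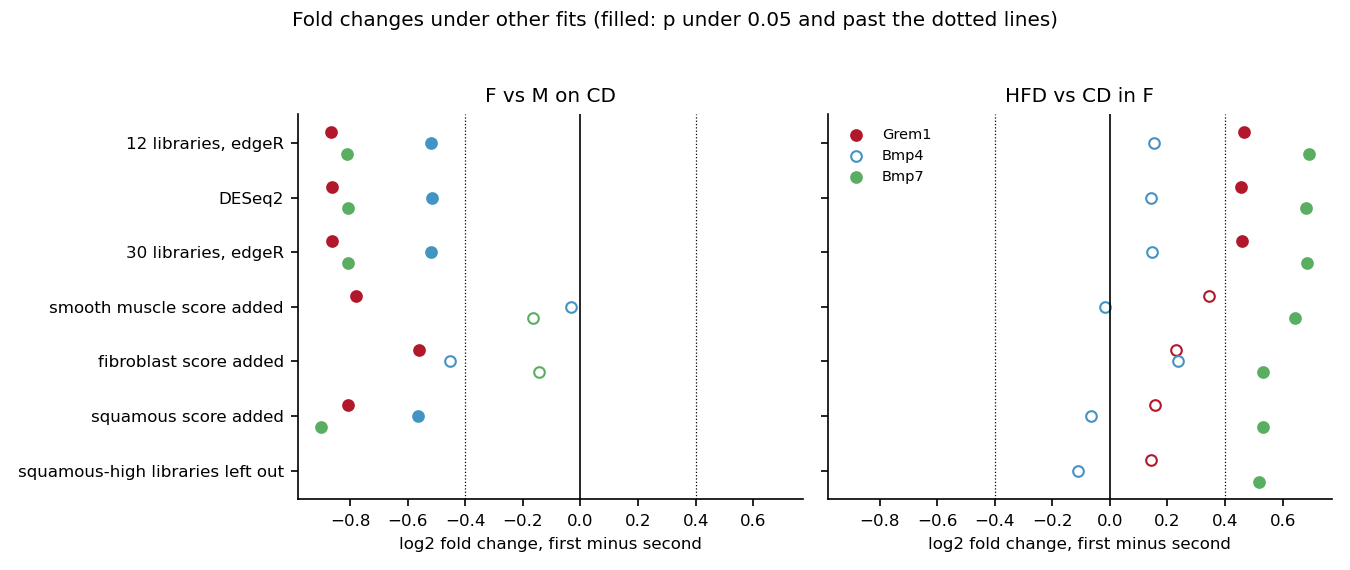
Log2 fold change (horizontal axis) of Grem1, Bmp4 and Bmp7 for CD F against CD M (left) and HFD F against CD F (right) in 7 fits (rows), filled where p was under 0.05 and the value past 0.4 either way. On the left Grem1 is filled in each fit shown, from -0.87 to -0.56, and on the right Bmp7 is, from 0.52 to 0.69; the last row has no value on the left.

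Of 50 other genes of the BMP pathway, listed as ligands, antagonists, receptors, Smads and targets, 36 were tested between CD females and males. No gene of them was called higher and 9 were called lower, against 6.21% of all genes called lower, with a median log2 fold change of -0.13 (0.01 over all genes). After adjustment 5 were lower, where 2.14% of all genes were. Id4, a target of the same family as Id1, had the largest difference at -1.12 (SE 0.17, edgeR adjusted p = 0.00291), with 9.78 ± 1.18 TPM in females and 23.1 ± 6.00 TPM in males (SD, n = 6). The antagonist Fstl1 (-0.60, edgeR adjusted p = 0.0129) was lower in the same direction as Grem1. The type I receptor Acvrl1, found on endothelium, was -0.66 (edgeR adjusted p = 0.024) and the coreceptor Rgmb was -0.45 (edgeR adjusted p = 0.0426). By class, 5 of 9 antagonists tested, 2 of 11 receptors and coreceptors, 1 of 4 ligands, 1 of 4 targets and none of 8 Smads and Smad regulators were called lower. By annotation, Id4 and Acvrl1 overlap other genes (A330033J07Rik and Gm49291 for Id4, antisense Gm16031 for Acvrl1). Bmp4 (Gm15217 and antisense Gm15222) and Bmp5 (Gm47723 and antisense Gm26903) do likewise. Reads were not examined, and the counts cannot assign reads in such stretches with certainty where the strand setting is not given.

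In the other comparisons the share of pathway genes called was near or below that of all genes. On HFD, 1 of 37 was called between the sexes against 3.09% of all genes, lower in females, Id4 at -0.44 (edgeR adjusted p = 0.872). HFD called none of 36 in females (3.67% of all genes) and in males 1 of 37 (2.9%), the antagonist Chrd at -0.51 (edgeR adjusted p = 0.823). E2 called none of 35 (5.87%). In the interaction 2 of 37 were called (5.18% of all genes), Acvrl1 at 0.62 (edgeR adjusted p = 0.63) and Id4 at 0.67 (edgeR adjusted p = 0.679), both with a more positive diet effect in females.

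The balance of antagonist to ligand was described by the ratio of Grem1 to the sum of Bmp2, Bmp4 and Bmp7 in TPM. It was 0.67 ± 0.20 in CD females and 1.11 ± 0.11 in CD males (SD, n = 6). The values were 0.90 ± 0.23 in HFD females, 0.91 ± 0.33 in HFD males and 0.85 ± 0.23 in HFD+E2 males. The ratio was at most 0.965 in CD females and at least 0.974 in CD males, so these groups did not overlap, and the HFD groups spanned both. In HFD+E2 males the ratio rests in part on the Bmp4 TPM of replicates 2 and 3, which disagreed with their counts as described next, and the highest ratio, 1.27, was that of replicate 3. Since the ratio contains Grem1, Bmp4 and Bmp7, it adds no evidence to their own tests.

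Counts and TPM of the same library disagreed for Bmp4 in 2 mice given E2. HFD+E2 M replicate 2 had 169 counts and 16.9 CPM, the highest of its group, but 1.91 TPM, the lowest of the 30 libraries, and replicate 3 had 248 counts and 3.29 TPM. As a result, Bmp4 between E2 and vehicle was 0.10 (SE 0.17) in counts and -0.70 on the scale of log2(TPM + 0.1) (exact permutation test, two-sided, p = 0.102, n = 6 and 6), and neither passed. For Grem1 in the same comparison both scales gave small values, -0.03 and -0.15. Chrdl1 in HFD+E2 M replicate 3 was likewise low in TPM (6.89, the lowest of the 30 libraries) beside 643 counts and 37.2 CPM. For Bmp7 the median log2 of TPM per CPM was -1.69 in CD females, against -1.13 in CD males and -1.17 in HFD females. These differences of counts and TPM were not examined further.

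**Figure D5:**
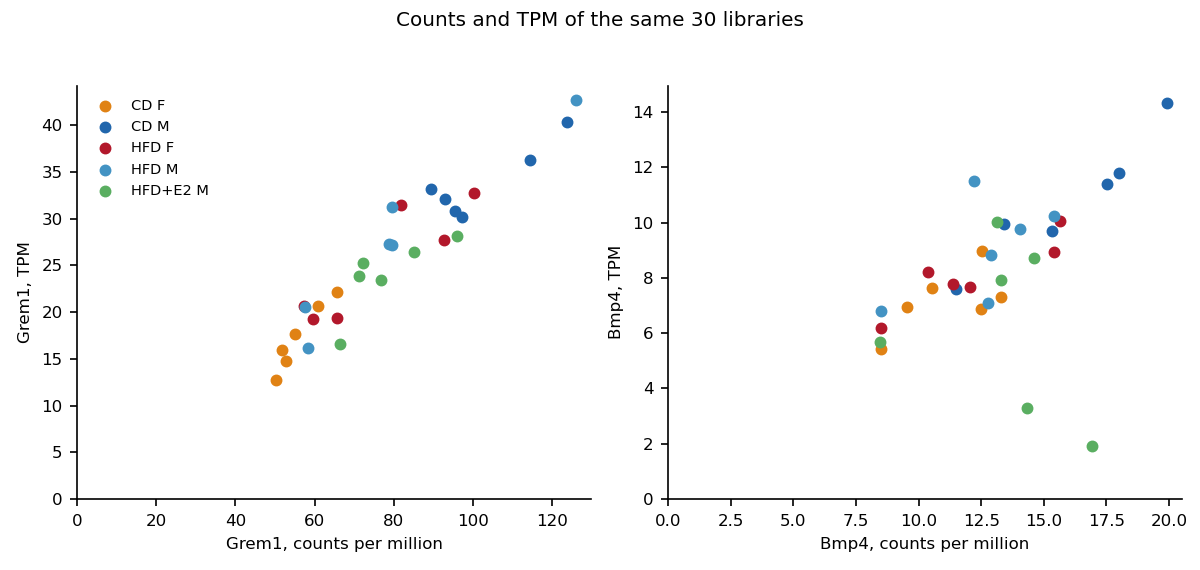
TPM (vertical axis) against CPM (horizontal axis) of Grem1 (left) and Bmp4 (right), 1 point per library, both axes from 0. The libraries fall near a line for Grem1, and for Bmp4 HFD+E2 M replicates 2 (16.9 CPM, 1.91 TPM) and 3 (3.29 TPM) fall below it.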

How the data were processed

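Raw counts and TPM values of 30 mouse colon libraries (stranded, ribosomal RNA depleted) were used, grouped by the sex, diet and treatment in the labels. The authors mapped the reads to GRCm38 with STAR and deposited whole-number counts per gene from featureCounts and TPM values from StringTie; the strand setting of the counting was not given in the sources used here. Counts were tested with edgeR 4.0.16 (filterByExpr, TMM, robust quasi-likelihood fit) on the 12 libraries of each comparison or 24 for the interaction, adjusted by Benjamini-Hochberg over all genes tested, and 8 of the 9 genes passed the filter. SE was the log2 fold change divided by the square root of F. CPM were scaled by TMM over 30 libraries, and log2 CPM used a prior count of 2. DESeq2 1.42.0, other filters and scaling, 1 fit over 30 libraries, marker scores, left-out libraries and log2 TPM were alternatives. Scores were mean log2 CPM of marker genes. The genes named were the 9, the pathway genes at an adjusted p under 0.05 or else up to 4 past the threshold with the smallest p, and the 2 genes most like each of the 9. A pathway gene that met this rule is counted but not reported here by name. The genes and lists were chosen with earlier results of these data known, and the fibroblast score and the omission of squamous-high libraries were added after seeing the data. Replicates were separate mice.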

Additional observations from a re-analysis of the deposited data

Results flagged for a closer look

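Of the 8 genes tested 3 were called in the interaction, against 5.18% of all genes in either direction and 3.71% in this one. The differences in log2 fold change, females minus males, were 0.81 for Grem1, 0.98 for Bmp7 and 0.49 for Bmp4. Bmp4 was called in only 9 of 24 fits that left out 1 library each. No edgeR adjusted p of the 3 was under 0.05.

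In 4 of 45 combinations of gene and group, a library lay apart from the other 5 by Dixon's criterion, which chance gives in about 1 of 20. Bmp2 was at 30.04 CPM in CD M replicate 4 (45.7 to 52.5 CPM in the others). HFD+E2 M replicate 1 was low for Bmp3, at 51.12 CPM (68.0 to 75.6 CPM), and for Bmp4, at 8.45 CPM (13.1 to 16.9 CPM). Bmp7 was at 1.65 CPM in HFD M replicate 1 (3.34 to 4.44 CPM), from 22 counts.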

How the results depend on the processing

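For CD females against males, 3 genes were called in every fit that left out 1 library and 1 with the fibroblast score. With the smooth muscle score Grem1 and Bmp3 were called, and Bmp4 and Bmp7 were not. Chrdl1 was also called without a fold minimum, and on log2 TPM with 0.1 added (-0.403, exact permutation test, two-sided, p = 0.0303). After adjustment the count was 1, against 3 with DESeq2, 2 in 1 fit over 30 libraries, 0 with the fibroblast score and 1 to 3 without 1 library, the 3 arising without CD M replicate 1 or replicate 6. The replicate block gave 3, with adjusted p = 0.0136 for Bmp4 and 0.0424 for Bmp7. Samples with the same number correlated above 0.1 in 5 of 6 pairs there, and not every library correlated best with its own number (4 of 6 females and 3 of 6 males), so the numbers were not taken to pair mice. The block moved no other count of calls by over 1.5 times. On HFD, females against males gave 0 called, or 1 (Nog) with DESeq2 or without the filter. HFD against CD in females gave 2, but 1 with the smooth muscle, squamous or fibroblast score or without the squamous-high libraries and 1 to 2 without 1 library. After adjustment it gave 0, or 1 with DESeq2. In males the count was 0, or 2 without a fold minimum, 1 with the squamous score or without the squamous-high libraries, and 0 to 1 without 1 library. E2 gave 0, or 1 without a fold minimum or on log2 TPM with 0.1 or 1 added. The interaction gave 3, or 1 with the smooth muscle or fibroblast score, 2 with the squamous score or without the squamous-high libraries, 4 with DESeq2 or without the filter (Nog added) and 2 to 3 without 1 library. The cause of these moves was not tested. Over 48 single fold changes and 1224 alternative values, 31 called values lost and 9 others gained the call, none reversed as a called value, and 98 values in 21 results changed sign while uncalled in both fits. Low counts limit Nog and Bmp7.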

Other observations

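The genes whose log2 CPM varied most like each of the 9 within groups (group means subtracted, 30 libraries, 14905 genes with a mean of at least 1 CPM) are given as a description, since libraries share depth and cell composition. Grem1 was most like Phldb2 (r = 0.78, Spearman's rho = 0.78) and the secreted guidance protein Sema3a (r = 0.76, rho = 0.71). Bmp4 was most like the extracellular superoxide dismutase Sod3 (r = 0.91, rho = 0.87) and the zinc transporter Slc39a13 (r = 0.86, rho = 0.81). Bmp7 was most like the laminin gene Lamc1 (r = 0.81, rho = 0.68) and Bmp1 (r = 0.78, rho = 0.55), which despite its name is a protease and no ligand. Bmp2 was most like Tomm34 (r = 0.77) and the epithelial transcription factor Hnf4a (r = 0.75). Bmp3 was most like Syne2 (r = 0.83) and Pdzrn3 (r = 0.80), Bmp5 like Mmrn1 (r = 0.81) and Igsf10 (r = 0.77), Chrdl1 like Pja2 (r = 0.82) and the matrix proteoglycan Ogn (r = 0.81), and Id1 like Tns4 (r = 0.81) and Chdh (r = 0.75). For Nog, with at most 15 counts, the nearest were Pmpca (r = 0.71) and Ramp2 (r = 0.69), which in counts this sparse is no finding. Without the 2 libraries farthest from the median these values were 0.62 to 0.89.

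Among the 8 genes tested the highest Pearson correlation was that of Bmp4 and Bmp7 (r = 0.61), but Spearman's rho (0.46) and the value without the 2 farthest libraries (0.46) were lower, and other pairs came first by those measures (rho = 0.48 for Bmp3 and Id1, 0.54 without the 2 farthest libraries for Grem1 and Chrdl1). Grem1 was closer to Chrdl1 (r = 0.41, rho = 0.46) than to Bmp4 (r = 0.24), and had r = 0.0016 with Id1. The squamous score had r = 0.50 with Grem1 (rho = 0.53).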
